A study of Mus musculus with 23 samples.

Results

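Macrophages answer lipopolysaccharide (LPS), a component of the outer membrane of Gram-negative bacteria, through Toll-like receptor 4. The receptor signals through NF-kB, which switches on cytokine and chemokine genes, and through interferon regulatory factors and secreted interferon, which switch on antiviral genes. Many of these genes are also the targets of their own inhibitors and of RNA-decay proteins made later in the response, and a later phase is known for secreted acute-phase proteins, iron and haem handling and metabolic genes. The data described here bear on the step between an earlier and a later time of that response: RNA from wild-type (WT) mouse bone marrow-derived macrophages (BMDMs, macrophages grown from bone marrow cells) exposed to LPS and labelled T16 (2 libraries), set against the same kind of cells exposed to LPS and labelled T6 (3 libraries). These 5 libraries were chosen by their genotype and time labels from 23. Untreated WT cells (T0, 3 libraries) and WT cells at T32 with LPS (3 libraries) are used as landmarks, and 3 libraries at T16 and 3 at T6 from cells labelled Stk40 knockout (KO), also exposed to LPS, give the same step in other libraries. No source used here gives the unit of time, the LPS dose, or the strain, sex and age of the mice. Whether replicates are separate animals or cultures is also unstated. The p-values therefore describe the spread between libraries, estimated from all 23 fitted together. Among the T16 and T6 WT libraries, RNA from the Y chromosome was present in T16 replicate 2 and T6 replicate 1 only. Xist, the RNA of X inactivation, was high in the others. By these RNAs each group holds libraries of both sexes, so the spread includes a difference between animals and may also be technical in part.

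The labelled cell type was checked against 28 macrophage genes, all of which passed the filter on low counts. Lyz2 (lysozyme) had 11338 and 15158 CPM at T16, against 17613, 9563 and 11359 CPM at T6. Csf1r, the receptor for the growth factor that keeps macrophages alive, had 1933 and 1605 CPM at T16, against 1999, 1322 and 1619 CPM at T6, and Cd68 (a macrophage lysosomal glycoprotein) had 971 and 1480.3 CPM at T16, against 1559, 619.9 and 1646 CPM at T6. CPM are read counts on a common library size, scaled between libraries by TMM (trimmed mean of M-values). The T16 and T6 libraries overlapped for all 3 genes and none passed the test. Itgam (CD11b) and Tyrobp, an adaptor of activating receptors, were likewise present in every library, at 255 to 666 CPM and 607 to 1242 CPM. These genes show presence and do not stand for the whole list. Of the 28 genes, 3 passed the test as higher at T16 (10.7%) and 10 as lower (35.7%), against 22.7% and 19.5% of all genes. Libraries held 28570725 and 32733296 counts at T16 and 19455080 to 39778253 at T6. Every pair of replicates differed by more than counting noise (a ratio of chi-square to degrees of freedom of 41.0 to 188), and all were kept.

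The T16 libraries differed from each other. In T16 replicate 2 the 10 most abundant genes took 17.4% of counts, against 12.4% in T16 replicate 1, mitochondrial genes took 0.233% against 0.389%, and Y-linked RNA was present at 45.9 CPM in replicate 2 only. Among the T6 libraries, Y-linked RNA was present in replicate 1 (116 CPM), and the mitochondrial share was 1.10% in replicate 2 against 0.474% and 0.464% in the others. The log2 ratio of T16 replicate 2 to T16 replicate 1 also moved with gene length: its median was 0.59 over 1304 genes shorter than 1500 bases and -0.62 over 2175 genes longer than 5000 bases. T6 replicate 2 stood off from the mean of the other T6 libraries in the same direction, with medians of 0.37 and -0.20 for these classes. For the fitted T16-to-T6 difference the medians were 0.081 for the short and -0.20 for the long genes. They were 0.36 and -0.60 without T16 replicate 1, and -0.21 and 0.091 without T16 replicate 2. The part that the length trend plays in the calls was not tested beyond a fit with that trend removed, which called 6908 genes, 6139 of them among the 6667 called here and in the same direction.

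**Figure D1:**
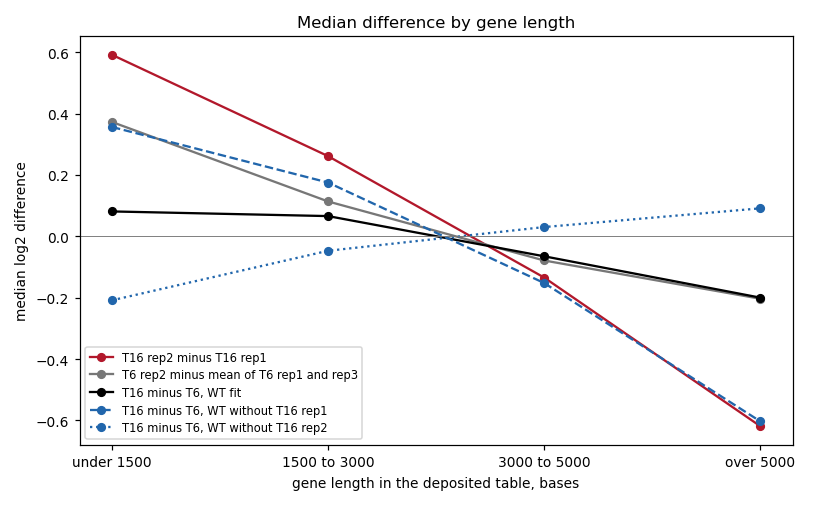
Median log2 difference (vertical axis) over genes in 4 classes of length in bases (horizontal axis). The red line is T16 replicate 2 minus T16 replicate 1 and runs from 0.59 to -0.62. The grey line is T6 replicate 2 minus the mean of the other T6 libraries. The black line is the fitted T16 minus T6 difference, and the blue lines are the same fit without T16 replicate 1 (dashed) or replicate 2 (dotted).

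Among genes with at least 20 CPM at T16, those furthest above in replicate 2 included Scimp (an adaptor in antigen presentation and Toll-like receptor signalling), Ccl12, Gadd45g, Ccl4, Il27 and Il10. Ccl12, a monocyte-attracting chemokine, had 80.2 and 337 CPM in T16 replicates 1 and 2, against 227, 178 and 134 CPM at T6. Those furthest below in replicate 2 were Xist (the RNA of X inactivation, at 511 and 0.15 CPM), AC151730.1, Ddx3x, Usp9x, Dtx3l and Dmxl1. Usp9x (a deubiquitinase with a long transcript) had 69.4 and 9.95 CPM at T16, against 86.6, 20.8 and 106 CPM at T6. Of these 12 genes, Ccl4, Il27 and Il10 were called, all lower at T16.

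Lists of cytokines, NF-kB genes and interferon-stimulated genes had most of their members called lower at T16 and none higher. Lists of ribosome biogenesis, stress response and NRF2 genes had the largest shares called higher. Of 15782 genes tested, 6667 (42.2%) were called in edgeR's quasi-likelihood test (adjusted p, by Benjamini and Hochberg, under 0.05). There were 3587 (22.7%) higher at T16 and 3080 (19.5%) lower. At least 4-fold differences numbered 564 higher and 683 lower. The calls held in the same direction without either T16 library in turn for 2017 of the higher and 1740 of the lower genes. The 2 T16 and 3 T6 libraries did not overlap for 51.2% of all genes tested. With libraries scaled by their totals in place of TMM, the median difference over all genes was 0.43 in place of 0.063 on the log2 scale, and 5516 genes were called higher and 1824 lower. The balance went the other way in further fits. DESeq2, another test, called 3344 higher and 3552 lower, and relative log expression scaling called 3222 and 3375. Which direction held more genes thus depended on the scaling. Fold changes below are therefore relative to the bulk of genes. Because each library is RNA of a whole culture, fewer cells of a type and less RNA per cell cannot be told apart.

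**Figure D2:**
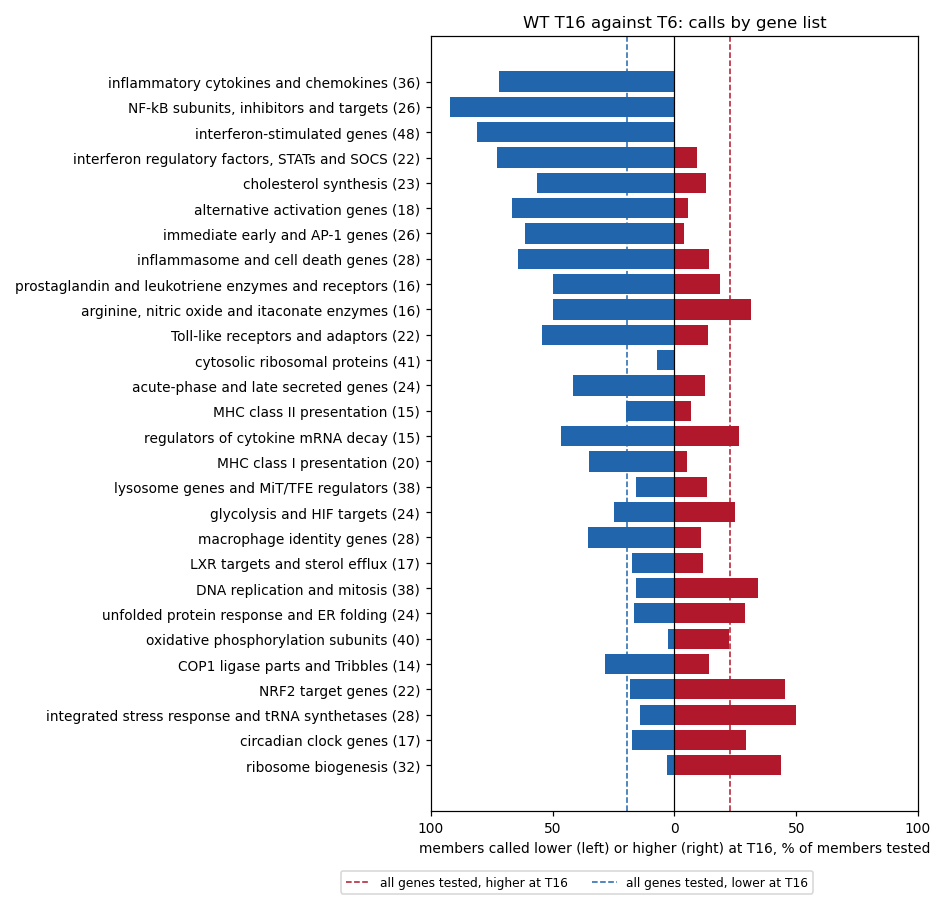
Share of the tested members of 28 gene lists (vertical axis, number tested in brackets) called lower (blue, to the left) or higher (red, to the right) at T16, in % (horizontal axis). Dashed lines give the shares over all genes tested, 19.5% lower and 22.7% higher. Lists of cytokines, NF-kB genes and interferon-stimulated genes have no member called higher, while ribosome biogenesis, NRF2 and stress response lists reach 43.8% to 50% higher.

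The largest falls were in genes of the response itself. Steap4, a metalloreductase induced by inflammatory signals, had 0.191 and 0.188 CPM at T16, against 27.8, 10.9 and 12.6 CPM at T6 (log2 fold change -6.48 ± 0.60 SE, edgeR adjusted p = 5.09e-08). Edn1, which encodes the vasoconstrictor peptide endothelin 1 (GENCODE M21, GRCm38, chromosome 13, 42301476 to 42307990), had 1.74 and 3.49 CPM at T16, against 242, 138 and 176 CPM at T6 (log2 fold change -6.17 ± 0.55 SE, edgeR adjusted p = 3.53e-08). Mt2, a metal-binding metallothionein with near-identical relatives among which reads could be split, had 11.2 and 14.8 CPM at T16, against 351, 934 and 373 CPM at T6 (log2 fold change -5.41 ± 0.55 SE, edgeR adjusted p = 1.86e-07, and -4.80 without T6 replicate 2). In each of these genes both T16 libraries lay below every T6 library, and the T32 means were 0.0473 ± 0.0487, 1.61 ± 1.06 and 5.66 ± 1.495 CPM (SD, n = 3 each). The other genes among the 12 steepest were Gfi1 (a repressor of transcription, -5.14), Il19 (an IL-10 family cytokine, -5.04, and -4.34 without T16 replicate 1, -6.03 without T16 replicate 2 and -4.30 without T6 replicate 2), Ptgs2, Hopx (a small homeodomain protein, -4.94, and -5.54 without T16 replicate 1), Mmp13 (collagenase 3), Il12b, Lck (a Src family kinase best known from T cells, -4.75), Nos2 and Mycl (a MYC family factor, -4.66, and -5.28 without T16 replicate 1), where the values are log2 fold changes.

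Apart from Arg1, the genes with the largest rises had a higher mean in untreated cells than at T6. Tmem86a, a lysoplasmalogen hydrolase (chromosome 7, 47050601 to 47054777), had 176 and 263 CPM at T16, against 7.34, 7.55 and 5.42 CPM at T6 (log2 fold change 5.02 ± 0.21 SE, edgeR adjusted p = 3.17e-12). Its means in untreated cells and at T32 were 196 ± 24.9 and 176 ± 11.8 CPM (SD, n = 3 each). Arrb1 (beta-arrestin 1) had 156 and 134 CPM at T16, against 9.37, 8.70 and 8.74 CPM at T6 (log2 fold change 4.02 ± 0.18 SE, edgeR adjusted p = 3.17e-12), with 150.1 ± 14.6 CPM at T0. Slc45a4, a solute carrier, had 65.4 and 65.2 CPM at T16, against 5.14, 4.38 and 4.91 CPM at T6 (3.76 ± 0.16 on the log2 scale), with 52.8 ± 8.30 CPM at T0. For Nfatc2, a calcium-regulated transcription factor, the values were 66.8 and 77.5 CPM at T16, against 6.70, 5.46 and 4.50 CPM at T6, and 66.5 ± 14.0 CPM at T0. In these genes every T16 library lay above every T6 library. Arhgap19 (4.26), Susd3 (3.71), 1810011H11Rik (3.53) and Cebpa (3.51) rose on the log2 scale but stayed below their T0 means of 261, 77.9, 44.0 and 155 CPM, at T16 means of 68.8, 25.6, 11.3 and 61.2 CPM. Gdpd5 (a glycerophosphodiesterase, 3.82), Fam78a (3.71) and C130050O18Rik (4.38) complete the group together with Arg1. T0 levels are given as landmarks and were not tested against T16.

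**Figure D3:**
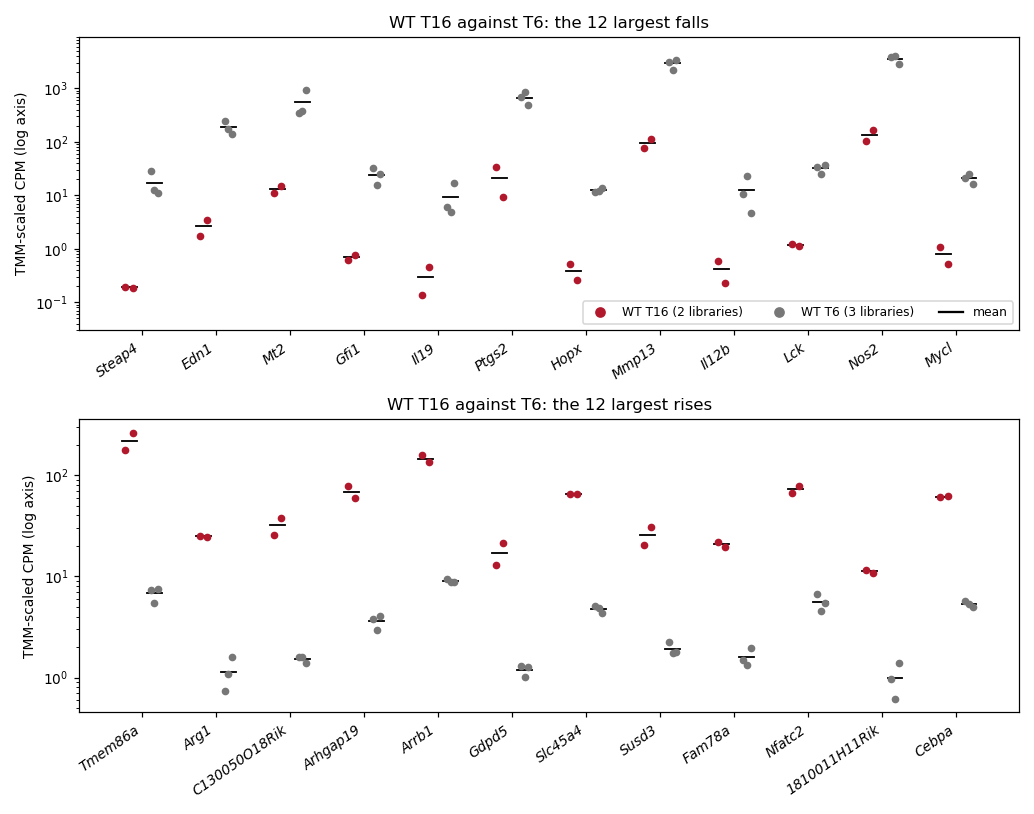
TMM-scaled CPM on a log axis in the 2 WT T16 libraries (red, left of each pair) and the 3 WT T6 libraries (grey, right of each pair) for the 12 largest falls (top) and 12 largest rises (bottom). Each point is 1 library and each black line a group mean. In all 24 genes the T16 and T6 points do not overlap, a condition used to choose them. Tmem86a sits at 176 and 263 CPM at T16 and at 5.42 to 7.55 CPM at T6.

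Cytokine and chemokine genes were lower at T16 as a group. Of 36 listed genes tested, 26 fell, none was called higher, and the median log2 fold change was -2.06, against 0.063 over all genes. Of the 26, 19 passed in both fits that leave out a T16 library. Tnf, the first-line inflammatory cytokine, had 162 and 228 CPM at T16, against 1386, 1538 and 1360.5 CPM at T6 (log2 fold change -2.87 ± 0.29 SE, edgeR adjusted p = 1.58e-07). Both T16 libraries were far below the T6 libraries and above the T0 mean of 26.7 ± 1.21 CPM. Il6, a cytokine that drives the acute-phase response of the liver, had 4.74 and 1.76 CPM at T16, against 59.7, 63.0 and 90.5 CPM at T6 (log2 fold change -4.43 ± 0.43 SE, edgeR adjusted p = 1.04e-07, and -5.33 without T16 replicate 1). Il12b, the shared subunit of IL-12 and IL-23, had 0.599 and 0.225 CPM at T16, against 10.5, 4.76 and 22.8 CPM at T6 (log2 fold change -4.88 ± 0.75 SE, edgeR adjusted p = 2.89e-05, and -5.80 without T16 replicate 1 and -4.16 without T6 replicate 3). Its T6 libraries were far apart, but each lay above both T16 libraries. Il10, the main anti-inflammatory cytokine of macrophages, fell as well, with 14.5 and 54.3 CPM at T16, against 176, 292 and 145 CPM at T6 (log2 fold change -2.57 ± 0.51 SE, edgeR adjusted p = 3.92e-04, and -1.91 without T16 replicate 1 and -3.81 without T16 replicate 2). Tnfsf9, the 4-1BB ligand of the TNF family, had 8.46 and 11.1 CPM at T16, against 134, 177 and 108 CPM at T6 (-3.84 ± 0.37). Il1b, the substrate of the inflammasome protease, had 474 and 541 CPM at T16, against 1180.5, 1295 and 865 CPM at T6 (log2 fold change -1.13 ± 0.35 SE, edgeR adjusted p = 0.012, not called at -1.04 without T16 replicate 1).

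Among the chemokines, Cxcl10, a T cell attractant induced by interferon, had 607 and 1352 CPM at T16, against 7525, 8613 and 7783 CPM at T6 (-3.03 ± 0.56, and -3.71 without T16 replicate 2). By contrast Ccl5 (RANTES) had 6534 and 17860.5 CPM at T16, against 8702, 6350.1 and 5817 CPM at T6 and did not pass the test (log2 fold change 0.81 ± 0.36 SE, edgeR adjusted p = 0.0761, but called at 1.36 without T16 replicate 1). T16 replicate 1 lay among the T6 libraries for Ccl5 and T16 replicate 2 well above them. Cxcl9, another interferon-induced chemokine, had 89.5 and 169 CPM at T16, against 493, 171 and 348 CPM at T6, with no overlap but also no call (log2 fold change -1.38 ± 0.56 SE, edgeR adjusted p = 0.0518, but called at -1.70 without T6 replicate 2). On the authors' length-adjusted scale (nRPKM, which permits comparison between genes), Ccl5 ranked second of all genes at both times, at 10669.8 and 29669.9 nRPKM at T16 and 14869.6, 11092 and 10062 nRPKM at T6, while Cxcl10 ranked 73rd at T16 and 7th at T6.

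NF-kB subunits, inhibitors and targets were lower at T16. Of 26 tested, 24 fell and none was called higher (median -1.70), and 22 of the 24 passed in the fits without either T16 library. Nfkbia, the inhibitor that NF-kB itself induces, had 377 and 502 CPM at T16, against 1674, 2543 and 1396 CPM at T6 (log2 fold change -2.09 ± 0.28 SE, edgeR adjusted p = 5.67e-06). Tnfaip3 (A20), a ubiquitin-editing enzyme that shuts down the pathway, had 191 and 126 CPM at T16, against 1749, 1929 and 1712 CPM at T6 (log2 fold change -3.50 ± 0.24 SE, edgeR adjusted p = 1.09e-09). Nfkbiz, an atypical IkB needed for secondary target genes, had 66.9 and 39.1 CPM at T16, against 432, 376 and 398 CPM at T6 (-2.92 ± 0.28). The subunit genes Nfkb1, Nfkb2, Rel, Rela and Relb fell by 2.17, 1.66, 2.28, 1.02 and 0.66 on the log2 scale, and Relb was not called at -0.38 without T16 replicate 1. The furthest falls in the list were in Cd40 and Tnip3. Cd40, a co-stimulatory receptor, had 70.6 and 132 CPM at T16, against 2299, 2189 and 2014 CPM at T6 (log2 fold change -4.42 ± 0.37 SE, edgeR adjusted p = 1.61e-08). Tnip3, an A20-binding inhibitor, had 93.6 and 110.3 CPM at T16, against 1429.5, 1214 and 1135 CPM at T6 (log2 fold change -3.63 ± 0.22 SE, edgeR adjusted p = 2.63e-10). In all of these genes the T16 libraries lay below every T6 library. The KO libraries gave -4.43 for Cd40 and -3.12 for Tnip3.

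Promoter letters of this list and the next were searched as well. The RefSeq table of GRCm38.p6 held the 250 bases before the start sites of 20 of the 26 tested NF-kB genes, in 27 windows. The kB motif, on either strand, was in 11 of them (40.7%) and in 7.25% of all 32851 windows in the table. For the interferon-stimulated genes described next, the interferon-stimulated response element GAAA NN GAAA was in 19 of 44 windows of 37 genes (43.2%) and in 2.98% of all windows. These matches describe letters and were not tested as binding sites. The windows are those of all tested members, called or not, and the lists were drawn up as genes of these pathways. The shares therefore do not bear on the falls. The Tnip3 window shown belongs to a RefSeq start site inside the gene's GENCODE M21 span (chromosome 6, 65525313 to 65634040). A called member of each list that holds a match is shown, chosen with its change known, 5′ to 3′ on the plus strand, to place the motif (capitals) against the start site that follows the last base: Tnip3 at chr6:65590148-65590397, with its kB motif starting 54 bases before the start, and Gbp5 at chr3:142496684-142496933, with its response element, read on the opposite strand, starting 165 bases before the start.
Tnip3: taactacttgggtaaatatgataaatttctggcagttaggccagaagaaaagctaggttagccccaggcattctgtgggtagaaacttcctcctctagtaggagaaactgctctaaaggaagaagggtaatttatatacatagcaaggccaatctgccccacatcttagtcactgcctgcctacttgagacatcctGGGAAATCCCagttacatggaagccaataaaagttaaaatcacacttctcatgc
Gbp5: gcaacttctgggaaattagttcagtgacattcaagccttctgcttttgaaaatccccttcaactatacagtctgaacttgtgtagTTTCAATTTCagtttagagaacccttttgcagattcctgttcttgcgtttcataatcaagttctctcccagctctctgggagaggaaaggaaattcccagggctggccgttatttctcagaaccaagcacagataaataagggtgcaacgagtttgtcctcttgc

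Interferon-stimulated genes were lower at T16 as well. Of 48 tested, 39 fell and none was called higher (median -1.23, with 1 higher and 32 lower without T16 replicate 1). Ifit1, which binds foreign RNA, had 829.6 and 839 CPM at T16, against 3524, 2739 and 3899.9 CPM at T6 (log2 fold change -2.02 ± 0.28 SE, edgeR adjusted p = 7.00e-06). Rsad2 (viperin), an antiviral enzyme, had 2292 and 3804 CPM at T16, against 14389, 12992 and 13847 CPM at T6 (log2 fold change -2.17 ± 0.40 SE, edgeR adjusted p = 1.87e-04). Gbp2 and Gbp5, GTPases that act on vacuoles of intracellular bacteria, had 977 and 1237 CPM and 266 and 203 CPM at T16, against 5431, 3123 and 4782 CPM and 2933, 1428 and 2940.1 CPM at T6 (log2 fold changes -2.01 ± 0.38 and -3.37 ± 0.51); both belong to a family of close copies that could share reads. The T16 and T6 libraries did not overlap for these 4 genes, and T16 levels were above the T0 means, which were 90.7 ± 22.5, 252 ± 109, 95.5 ± 31.6 and 22.3 ± 9.07 CPM. Isg15, a ubiquitin-like modifier, had 1070.4 and 2199 CPM at T16, against 3419.7, 5002 and 2883 CPM at T6 (log2 fold change -1.20 ± 0.37 SE, edgeR adjusted p = 0.0125, not called at -0.78 without T16 replicate 1 and -0.95 without T6 replicate 2, and -1.81 without T16 replicate 2). Mx1 had 1127 and 1604 CPM at T16, against 3726, 2744 and 3082 CPM at T6 (-1.22 ± 0.31, not called at -0.99 without T16 replicate 1). Cmpk2, a mitochondrial nucleotide kinase, was among the 3 largest falls of the list (-2.56 ± 0.44).

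Among interferon regulatory factors, STATs and SOCS inhibitors, 16 of 22 tested fell and 2 rose (median -1.03, with 4 higher and 12 lower with library totals, median -0.63 and 1 higher and 14 lower without T16 replicate 2). Irf1, a transcription factor of the primary response, had 253 and 368 CPM at T16, against 855, 995 and 896 CPM at T6 (log2 fold change -1.56 ± 0.24 SE, edgeR adjusted p = 2.43e-05). Socs3, an inhibitor of cytokine receptor signalling, had 349.5 and 536 CPM at T16, against 2385, 2035 and 1945 CPM at T6 (log2 fold change -2.26 ± 0.26 SE, edgeR adjusted p = 8.59e-07). Stat5a (-2.61 ± 0.18) and Stat3 (-1.86 ± 0.13) fell as well, with 267 and 258 CPM for Stat3 at T16 and 1021, 927 and 909 CPM at T6. Socs1, a second inhibitor of the family, fell (-1.67 ± 0.48, not called at -1.08 without T16 replicate 1, and -2.67 without T16 replicate 2), as did Cish (-1.96 ± 0.30). Irf7, the factor that amplifies type I interferon, had 3285 and 6391 CPM at T16, against 4176, 3187 and 3304 CPM at T6 and was not called (log2 fold change 0.44 ± 0.26 SE, edgeR adjusted p = 0.184, but called at 0.85 without T16 replicate 1). Its libraries overlapped, with T16 replicate 2 the highest of the 5. Stat6, the factor of IL-4 signalling, rose (0.49 ± 0.14, not called at 0.43 without T16 replicate 1). Irf3 also rose (0.64 ± 0.19, not called at 0.16 without T16 replicate 2), although its T16 and T6 values overlapped.

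The enzymes that macrophages use against microbes changed unequally. In the list of arginine, nitric oxide and itaconate enzymes, 8 of 16 tested fell and 5 rose (median -0.54, with 6 higher and 5 lower with library totals, median -0.18 and 3 higher and 6 lower without T16 replicate 2). By share, 50% of the list fell and 31.25% rose, against 19.5% and 22.7% of all genes. Nos2, inducible nitric oxide synthase, had 102 and 165 CPM at T16, against 3840.1, 2862 and 3989 CPM at T6 (log2 fold change -4.74 ± 0.97 SE, edgeR adjusted p = 5.22e-04). Acod1, which makes itaconate, had 1959 and 2234 CPM at T16, against 9611, 8457 and 9441 CPM at T6 (log2 fold change -2.13 ± 0.33 SE, edgeR adjusted p = 2.78e-05). Slc7a2, an arginine transporter, had 70.5 and 41.0 CPM at T16, against 313, 354 and 383 CPM at T6 (-2.65 ± 0.30). Gch1, the first enzyme in making the cofactor of nitric oxide synthase, fell (-1.82 ± 0.23), whereas the later enzymes of that route rose, Spr by 1.36 ± 0.28 and Pts by 0.81 ± 0.20, not called at 0.53 without T16 replicate 2. Arg1, the arginase that competes for the same substrate, rose, with 25.3 and 24.4 CPM at T16, against 0.734, 1.59 and 1.07 CPM at T6 (log2 fold change 4.51 ± 0.44 SE, edgeR adjusted p = 8.93e-08). Arg1 was close to 0 in untreated cells (0.0963 ± 0.0947 CPM) and was at 6.93 ± 3.08 CPM at T32. The KO libraries gave 6.18 for Arg1 and -2.81 for Nos2 on the log2 scale.

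Prostaglandin and leukotriene genes also moved both ways, with 8 of 16 tested lower and 3 higher (median -0.56, with 4 higher and 6 lower with library totals, median -0.21). The shares were 50% lower and 18.75% higher, against 19.5% and 22.7% of all genes. Ptgs2 (cyclooxygenase 2) had 33.4 and 9.27 CPM at T16, against 687, 481 and 845 CPM at T6 (log2 fold change -4.97 ± 0.53 SE, edgeR adjusted p = 3.31e-07, and -6.18 without T16 replicate 1 and -4.32 without T16 replicate 2). Ptges, the prostaglandin E synthase, had 307 and 373 CPM at T16, against 656, 777 and 473 CPM at T6, a smaller fall (log2 fold change -0.90 ± 0.21 SE, edgeR adjusted p = 0.00186). Pla2g4a, which releases arachidonic acid, fell (-2.20 ± 0.36). Hpgd, which inactivates prostaglandins, had 0.0817 and 0.0375 CPM at T16, against 2.60, 1.65 and 1.43 CPM at T6 (-4.85 ± 0.97, and -5.53 without T16 replicate 1). Ltc4s, which makes leukotriene C4, also fell (-3.11 ± 0.42). Tbxas1 (thromboxane synthase), Ptger2 (a receptor of prostaglandin E2) and Lta4h (leukotriene A4 hydrolase) rose, by 1.58 ± 0.23, 1.46 ± 0.20 and 0.94 ± 0.14. Ptger2 had 19.3 and 16.1 CPM at T16, against 5.37, 8.06 and 6.08 CPM at T6.

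Of 24 acute-phase and late secreted genes tested, 10 fell and 3 rose (median -0.41, with 7 higher and 8 lower with library totals, median -0.048, 5 higher and 6 lower without T16 replicate 1, 1 higher and 9 lower without T16 replicate 2 and 1 higher and 10 lower without T6 replicate 3). The share that rose was 12.5%, against 22.7% of all genes, and none of the 3 rises held in both fits that leave out a T16 library. Saa3, an acute-phase serum amyloid protein with close relatives, had 21828 and 47811 CPM at T16, against 11954, 22933 and 6342 CPM at T6 (log2 fold change 1.34 ± 0.46 SE, edgeR adjusted p = 0.025, not called at 0.67 without T16 replicate 2, 1.25 without T6 replicate 1 and 0.997 without T6 replicate 3, and 1.93 without T6 replicate 2). The highest T6 library, replicate 2, lay above the lower T16 library, replicate 1. Marco, a scavenger receptor for bacteria, had 767 and 2061 CPM at T16, against 295, 181 and 69.6 CPM at T6 (log2 fold change 2.96 ± 0.77 SE, edgeR adjusted p = 0.00386, not called at 2.08 without T16 replicate 2). Fpr1, the receptor for bacterial formyl peptides, rose by 1.05 ± 0.40, not called at 0.80 without T16 replicate 2, 0.84 without T6 replicate 2 and 0.88 without T6 replicate 3. Lcn2, an iron-scavenging protein, had 378 and 972 CPM at T16, against 579, 328 and 307 CPM at T6 and was not called with all 5 libraries (log2 fold change 0.74 ± 0.35 SE, edgeR adjusted p = 0.0979, but called at 1.27 without T16 replicate 1 and 1.09 without T6 replicate 1). Complement C3 had 1011 and 1590.4 CPM at T16, against 2662, 929 and 1570.1 CPM at T6, with overlap and no call (log2 fold change -0.40 ± 0.41 SE, edgeR adjusted p = 0.463). Among the falls, Mmp13 had 77.9 and 112 CPM at T16, against 3119, 3389 and 2204 CPM at T6 (log2 fold change -4.94 ± 0.40 SE, edgeR adjusted p = 9.44e-09). Lipg (endothelial lipase) had 70.6 and 137 CPM at T16, against 2155, 1628 and 1881 CPM at T6 (-4.19 ± 0.60).

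**Figure D4:**
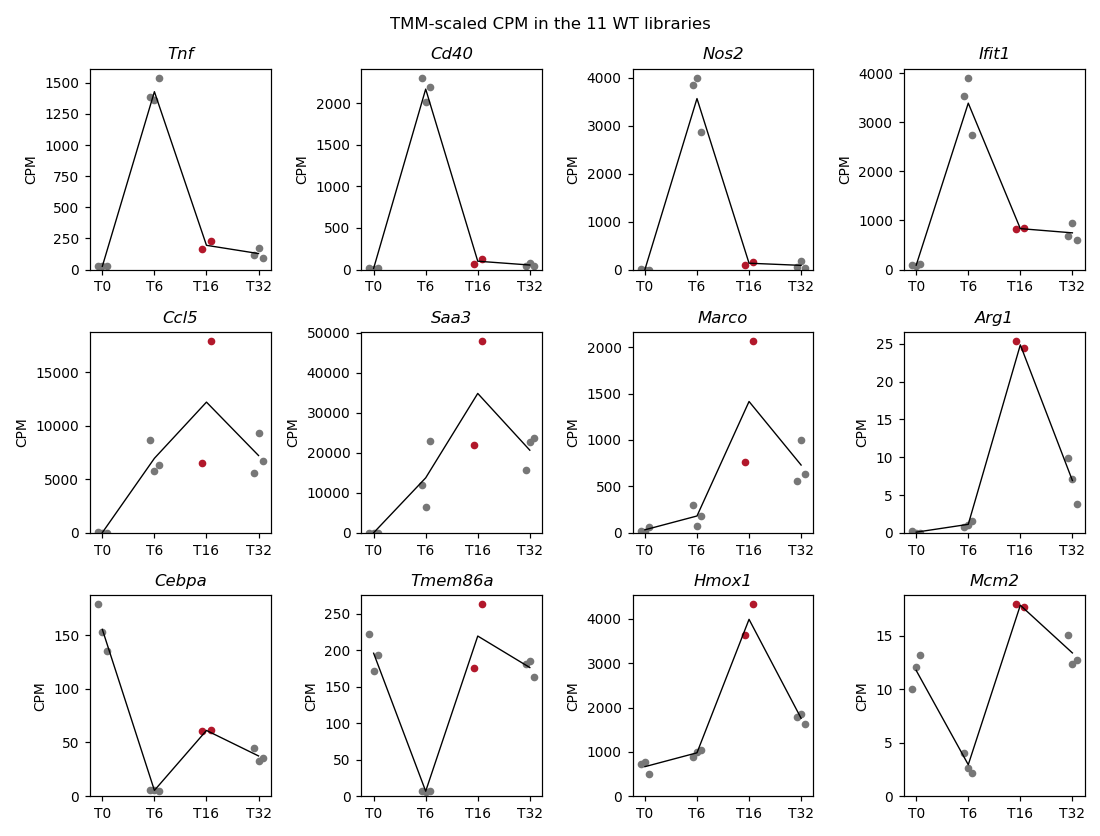
TMM-scaled CPM (linear vertical axes that start at 0) in the 11 WT libraries at T0, T6, T16 and T32 (horizontal axes) for 12 genes, with 1 point per library, T16 in red and other times in grey, and a line through the group means. Tnf, Cd40, Nos2 and Ifit1 are highest at T6. Arg1, Hmox1 and Mcm2 are highest at T16. Cebpa and Tmem86a dip at T6. The 2 T16 points lie far apart for Ccl5, Saa3 and Marco.

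Immediate early genes, which respond within the first phase of signalling, were mostly lower, with 16 of 26 tested down and 1 up (median -0.93, with 0 higher and 13 lower without T16 replicate 1). Dusp2, a phosphatase of MAP kinases, had 17.1 and 57.5 CPM at T16, against 449, 579.5 and 260.3 CPM at T6 (log2 fold change -3.53 ± 0.52 SE, edgeR adjusted p = 1.53e-05, and -2.90 without T16 replicate 1 and -4.64 without T16 replicate 2). Egr2 (-2.64 ± 0.34) and Nr4a3 (-2.85 ± 0.42, and -3.60 without T16 replicate 1) fell, while Egr1 had 11.6 and 23.9 CPM at T16, against 22.0, 23.9 and 16.9 CPM at T6 and Nr4a1 had 5.77 and 6.01 CPM at T16, against 7.54, 7.55 and 5.98 CPM at T6, both with overlap and no call (edgeR adjusted p = 0.667 and 0.605). Myc fell (5.42 and 7.92 CPM at T16, against 16.3, 13.1 and 18.2 CPM at T6, -1.26 ± 0.29), and so did Atf3 (276 and 459 CPM at T16, against 702, 577 and 687 CPM at T6, -0.84 ± 0.22, not called at -0.51 without T16 replicate 1). Fos was the member that rose, with 232 and 147 CPM at T16, against 94.4, 96.4 and 84.8 CPM at T6 (log2 fold change 1.04 ± 0.27 SE, edgeR adjusted p = 0.00385, not called at 0.68 without T16 replicate 1). Its T0 mean was 251 ± 36.0 CPM.

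Of 15 regulators of cytokine mRNA decay tested, 7 fell and 4 rose (median -0.29, with 6 higher and 5 lower with library totals, median 0.080 and 2 higher and 7 lower without T16 replicate 1). The shares were 46.7% lower and 26.7% higher, against 19.5% and 22.7% of all genes. Zfp36 (tristetraprolin), which binds AU-rich elements, had 584 and 748 CPM at T16, against 2298, 2665 and 2204 CPM at T6 (log2 fold change -1.84 ± 0.20 SE, edgeR adjusted p = 4.71e-07). Its relative Zfp36l1 went the other way, with 67.3 and 28.3 CPM at T16, against 15.4, 9.14 and 14.8 CPM at T6 (log2 fold change 1.86 ± 0.32 SE, edgeR adjusted p = 9.22e-05, and 1.10 without T16 replicate 1), and a second relative, Zfp36l2, rose with overlapping values (114 and 38.7 CPM at T16, against 31.8, 18.7 and 45.7 CPM at T6, 1.25 ± 0.34, not called at 0.27 without T16 replicate 1). Zc3h12c, of the regnase family, fell (-1.58 ± 0.50, not called at -0.82 without T16 replicate 2 and -1.32 without T6 replicate 3, and -3.27 without T16 replicate 1). Its relative Zc3h12a (regnase-1), a nuclease, had 90.9 and 96.2 CPM at T16, against 250.5, 96.9 and 233 CPM at T6 and was not called (log2 fold change -1.05 ± 0.42 SE, edgeR adjusted p = 0.053, but called at -1.37 without T6 replicate 2), though it passed in DESeq2 (-1.11). The T0 means of Zfp36l1 and Zfp36l2 were 85.0 ± 8.23 and 152 ± 14.8 CPM.

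Receptors and adaptors of the Toll-like pathway were lower in 12 of 22 cases and higher in 3 (median -0.53, with 3 higher and 6 lower with library totals, median -0.18). The shares were 54.5% lower and 13.6% higher, against 19.5% and 22.7% of all genes. Cd14, the co-receptor that hands LPS to Toll-like receptor 4, had 747 and 685 CPM at T16, against 2536, 2245 and 1977 CPM at T6 (log2 fold change -1.65 ± 0.19 SE, edgeR adjusted p = 7.26e-07). Tlr4 itself had 55.8 and 29.0 CPM at T16, against 54.5, 44.1 and 65.5 CPM at T6, with overlap and no call (log2 fold change -0.37 ± 0.27 SE, edgeR adjusted p = 0.303, but called at -0.91 without T16 replicate 1). Tlr2, a receptor for bacterial lipoproteins, fell (-1.05 ± 0.26, not called at -0.75 without T16 replicate 2). Tlr3 (-2.43 ± 0.29) and the adaptor Myd88 (-1.42 ± 0.18) fell with no overlap. Tlr13, a receptor for bacterial ribosomal RNA, rose, with 286 and 235 CPM at T16, against 87.7, 71.5 and 86.8 CPM at T6 (log2 fold change 1.67 ± 0.23 SE, edgeR adjusted p = 6.14e-06), and so did the kinases Irak4 (0.90 ± 0.13) and Irak1 (0.66 ± 0.19, not called at 0.40 without T16 replicate 1).

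Genes of inflammasomes and cell death fell in 18 of 28 cases and rose in 4 (median -0.85). Nlrp3, the sensor that forms the main inflammasome, had 122 and 66.0 CPM at T16, against 548, 570.1 and 643 CPM at T6 (log2 fold change -2.64 ± 0.25 SE, edgeR adjusted p = 7.42e-08). Casp1 and Casp4, the proteases that mature IL-1 beta and sense intracellular LPS, had 243 and 353 CPM and 90.1 and 117 CPM at T16, against 848, 604 and 784 CPM and 493, 401 and 441 CPM at T6 (-1.32 ± 0.21 and -2.10 ± 0.19). The death receptor Fas (-2.26 ± 0.24) fell too, and so did Bcl2a1d (-2.45 ± 0.50, and -3.15 without T16 replicate 1), one of a set of close copies. Nlrp1b, another sensor, rose (30.7 and 15.4 CPM at T16, against 7.47, 9.08 and 4.80 CPM at T6, 1.70 ± 0.34), and its T0 mean was 143 ± 5.39 CPM.

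Among the 28 macrophage identity genes, 3 rose and 10 fell (median 0.041, with 8 higher and 6 lower with library totals, median 0.39). The shares were 10.7% higher and 35.7% lower, against 22.7% and 19.5% of all genes. Cebpa, a master factor of myeloid cells (chromosome 7, 35119293 to 35121928), had 60.5 and 61.9 CPM at T16, against 5.70, 5.01 and 5.37 CPM at T6 (log2 fold change 3.51 ± 0.19 SE, edgeR adjusted p = 7.00e-11). Every T6 library lay below both T16 libraries. Adgre1 (F4/80) had 4714 and 3289.8 CPM at T16, against 2641, 1047 and 2117 CPM at T6 (log2 fold change 1.05 ± 0.39 SE, edgeR adjusted p = 0.0345, not called at 0.77 without T16 replicate 1, 0.75 without T6 replicate 2 and 1.12 without T6 replicate 3). Mrc1, the mannose receptor, had 44.2 and 25.6 CPM at T16, against 243, 176 and 170.1 CPM at T6 (log2 fold change -2.49 ± 0.31 SE, edgeR adjusted p = 2.18e-06). Trem2, a lipid receptor, had 226 and 367 CPM at T16, against 781, 892 and 699 CPM at T6 (-1.42 ± 0.22), and Timd4, a receptor for dying cells, fell (-2.72 ± 0.63). Spi1 (PU.1) fell (-0.73 ± 0.22, not called at -0.31 without T16 replicate 1 and -0.60 without T6 replicate 1, and -1.32 without T16 replicate 2). Of 18 genes used as markers of alternative, IL-4-type activation, 12 fell and 1 rose (median -0.99, with 1 higher and 7 lower without T16 replicate 1). The gene that rose was Arg1, Retnla was below the count filter, and the falls included Clec10a, a lectin, with 1.36 and 1.65 CPM at T16, against 9.87, 13.9 and 5.57 CPM at T6 (-2.70 ± 0.45).

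The genes that rose included those for making ribosomes and charging tRNAs. In ribosome biogenesis, 14 of 32 tested rose and 1 fell (median 0.50, with 9 higher and 1 lower without T16 replicate 1). Rrp1b had 11.2 and 7.24 CPM at T16, against 2.10, 2.48 and 3.32 CPM at T6 (log2 fold change 1.82 ± 0.28 SE, edgeR adjusted p = 2.52e-05). Polr1b, a subunit of RNA polymerase I, had 10.9 and 6.72 CPM at T16, against 2.10, 2.79 and 3.48 CPM at T6 (log2 fold change 1.67 ± 0.24 SE, edgeR adjusted p = 1.35e-05). Ncl (nucleolin) had 193 and 169.7 CPM at T16, against 187, 189 and 204 CPM at T6 and was not called (log2 fold change -0.092 ± 0.14 SE, edgeR adjusted p = 0.629). Npm1 (log2 fold change -0.64 ± 0.33 SE, edgeR adjusted p = 0.129) was not called either, while Wdr12 rose (1.57 ± 0.35). Not all rises of this list held in both fits that leave out a T16 library. The list's median was 0.45 without T16 replicate 1 and 0.55 without T16 replicate 2. In the KO libraries it was 0.042, with 6 genes of the list called higher and 5 lower. Of 41 cytosolic ribosomal proteins tested, 3 were called lower and none higher (median -0.44, with 0 higher and 0 lower without T16 replicate 1 and 0 higher and 5 lower without T16 replicate 2). With the length trend removed 12 were lower, and in the KO libraries 29 were lower and none higher (median -1.16). Genes of this kind have processed copies that can take uniquely aligned reads from them. Rpl3 had 0.299 and 0.375 CPM at T16, against 0.267, 0.127 and 0.358 CPM at T6. The falls included Rpl24 (-1.87 ± 0.70, not called at -2.19 without T16 replicate 1 and -1.67 without T16 replicate 2) and Rps4x (-0.99 ± 0.25, not called at -0.81 without T16 replicate 1). Rps3 (0.0083 ± 0.15) and Rplp0 (-0.70 ± 0.34) were not called.

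In the list of the integrated stress response and tRNA synthetases, 14 of 28 tested rose and 4 fell (median 0.47). Mars, the methionine tRNA synthetase, had 39.9 and 37.8 CPM at T16, against 12.1, 6.66 and 15.2 CPM at T6 (log2 fold change 1.77 ± 0.23 SE, edgeR adjusted p = 3.34e-06). Eprs, Iars, Lars, Nars, Sars, Tars and Yars rose by 0.95, 1.32, 0.82, 0.65, 0.86, 0.65 and 1.16 on the log2 scale. Wars, which is the synthetase induced by interferon, went the other way, with 73.6 and 83.2 CPM at T16, against 291, 228 and 305 CPM at T6 (log2 fold change -1.81 ± 0.18 SE, edgeR adjusted p = 1.02e-07). Sesn2, a stress-induced inhibitor of the mTORC1 kinase, had 39.9 and 43.9 CPM at T16, against 11.6, 8.31 and 11.04 CPM at T6 (log2 fold change 2.02 ± 0.20 SE, edgeR adjusted p = 1.24e-07). The transcription factor gene of this pathway, Atf4, had 333 and 495 CPM at T16, against 334, 679 and 354 CPM at T6 with no call (log2 fold change -0.14 ± 0.33 SE, edgeR adjusted p = 0.771), and its target Asns had 23.3 and 22.3 CPM at T16, against 15.1, 15.3 and 21.3 CPM at T6, apart but not called (edgeR adjusted p = 0.252), like Trib3 (0.47 ± 0.32). Psat1, a serine synthesis enzyme, fell, with 13.9 and 18.2 CPM at T16, against 79.9, 55.2 and 50.2 CPM at T6 (-1.94 ± 0.25).

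Genes of oxidant defence and iron handling under the factor NRF2 rose in 10 of 22 cases and fell in 4 (median 0.33, with 14 higher and 1 lower with library totals, median 0.68 and 7 higher and 2 lower without T16 replicate 2). Hmox1, which breaks down haem, had 3637 and 4347 CPM at T16, against 888, 1049.7 and 998 CPM at T6 (log2 fold change 2.03 ± 0.23 SE, edgeR adjusted p = 6.16e-07). Its T16 libraries were above every other WT library, as the T0 and T32 means were 666 ± 142 and 1758 ± 109 CPM (SD, n = 3 each). Fth1, the heavy chain of the iron store ferritin, was the most abundant gene per length at both times, at 26767 and 47773 nRPKM at T16, against 18324, 10581 and 15935 nRPKM at T6. In CPM it rose by 1.38 ± 0.27 on the log2 scale (edgeR adjusted p = 3.06e-04), and it was 0.71 and not called with T16 replicate 2 and T6 replicate 2 both left out. Gclm, a subunit of the enzyme that starts glutathione synthesis, had 109.96 and 66.2 CPM at T16, against 29.4, 40.6 and 40.5 CPM at T6 (log2 fold change 1.26 ± 0.24 SE, edgeR adjusted p = 2.94e-04). Nqo1 had 4.41 and 4.84 CPM at T16, against 4.10, 3.24 and 3.63 CPM at T6, apart but not called (edgeR adjusted p = 0.161). Not all rises of the list held in both fits that leave out a T16 library. The list's median was 0.47 without T16 replicate 1 and 0.23 without T16 replicate 2. Nfe2l2, which encodes NRF2, fell (-0.90 ± 0.21, not called at -0.60 without T16 replicate 2).

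Of 38 genes of DNA replication and mitosis tested, 13 rose and 6 fell (median 0.060, with 17 higher and 4 lower with library totals, median 0.45 and 14 higher and 3 lower without T16 replicate 1). Genes called higher made up 34.2% of the list and genes called lower 15.8%, against 22.7% and 19.5% of all genes. The rises included Mcm2, Mcm3, Mcm4, Mcm5 and Mcm7, subunits of the helicase that opens replication origins, while the subunit gene Mcm6 was not called (log2 fold change -0.0054 ± 0.21 SE, edgeR adjusted p = 0.988). Mcm2 had 18.0 and 17.7 CPM at T16, against 4.002, 2.16 and 2.66 CPM at T6 (log2 fold change 2.57 ± 0.21 SE, edgeR adjusted p = 1.20e-08). Mcm3 had 31.95 and 32.6 CPM at T16, against 8.07, 7.68 and 8.08 CPM at T6 (log2 fold change 2.02 ± 0.16 SE, edgeR adjusted p = 9.43e-09). Mki67, a marker of cycling cells, had 13.1 and 7.43 CPM at T16, against 36.4, 31.9 and 32.8 CPM at T6 (log2 fold change -1.71 ± 0.24 SE, edgeR adjusted p = 1.04e-05), and the mitotic genes Ccnb2 (-1.67 ± 0.40, not called at -1.15 without T16 replicate 1, and -2.39 without T16 replicate 2), Cenpe (-1.23 ± 0.27) and Cenpf (-1.33 ± 0.52, not called at -1.36 without T16 replicate 1, -1.29 without T16 replicate 2, -1.19 without T6 replicate 1 and -1.31 without T6 replicate 3) fell as well. Cdk1 and Aurkb rose (1.03 ± 0.24 and 1.07 ± 0.29). Ccnb1, at 0.136 and 0.375 CPM at T16, against 0.5, 0.127 and 0.664 CPM at T6, had overlapping values (log2 fold change -0.84 ± 0.57 SE, edgeR adjusted p = 0.256). A site for E2F factors, TTTNGCGC on either strand, was in 5 of 33 windows of the list (15.2%) and in 1.13% of all windows. Mcm5, a called member with a match, is shown and was chosen by the size of its change. Its window at chr8:75109259-75109508 (plus strand, 5′ to 3′) holds 2 overlapping matches, in capitals, that start 153 and 149 bases before the start site.
Mcm5: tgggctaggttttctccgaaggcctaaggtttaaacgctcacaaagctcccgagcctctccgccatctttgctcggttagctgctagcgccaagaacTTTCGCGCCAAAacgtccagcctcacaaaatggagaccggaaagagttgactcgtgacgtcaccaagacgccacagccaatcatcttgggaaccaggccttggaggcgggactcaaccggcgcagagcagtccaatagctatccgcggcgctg

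Of 17 circadian genes tested, 5 rose and 3 fell (median 0.49, with 8 higher and 1 lower with library totals, median 0.85, 4 higher and 5 lower without T16 replicate 1, 6 higher and 1 lower without T16 replicate 2 and 5 higher and 5 lower without T6 replicate 1). Tef, a factor driven by the clock, had 63.1 and 51.5 CPM at T16, against 13.0, 20.6 and 12.8 CPM at T6 (log2 fold change 1.90 ± 0.19 SE, edgeR adjusted p = 1.07e-07). Dbp, of the same family, had 17.5 and 29.3 CPM at T16, against 2.63, 5.52 and 1.74 CPM at T6 (log2 fold change 2.86 ± 0.35 SE, edgeR adjusted p = 1.80e-06). Per1 had 42.2 and 42.4 CPM at T16, against 18.4, 19.9 and 19.8 CPM at T6 (log2 fold change 1.13 ± 0.15 SE, edgeR adjusted p = 7.07e-06), and Per2 (1.83 ± 0.29, and 0.99 without T16 replicate 1) and Per3 (1.14 ± 0.27, not called at 0.63 without T16 replicate 1) rose too. The T16 and T6 libraries did not overlap for any of these 5 genes. Of the circadian genes, 29.4% rose and 17.6% fell, against 22.7% and 19.5% of all genes. The core gene Arntl had 7.89 and 6.31 CPM at T16, against 5.30, 3.55 and 5.16 CPM at T6 and Nr1d1 10.2 and 11.4 CPM at T16, against 4.74, 10.7 and 7.56 CPM at T6, with no call (edgeR adjusted p = 0.114 and 0.2). The repressors Cry1 (-1.05 ± 0.27, not called at -0.68 without T16 replicate 2), Nfil3 (-0.98 ± 0.20) and Bhlhe40 (-1.21 ± 0.44, not called at -0.81 without T16 replicate 2 and -0.92 without T6 replicate 3) fell. The time of day at harvest is unstated, so it cannot be told apart from time with LPS. The clock's E-box, CACGTG, was in 6 of 20 windows of these genes (30%) and in 6.02% of all windows; that of Tef, at chr15:81802423-81802672 on the plus strand, is shown with the E-box in capitals, 127 bases before the start site.
Tef: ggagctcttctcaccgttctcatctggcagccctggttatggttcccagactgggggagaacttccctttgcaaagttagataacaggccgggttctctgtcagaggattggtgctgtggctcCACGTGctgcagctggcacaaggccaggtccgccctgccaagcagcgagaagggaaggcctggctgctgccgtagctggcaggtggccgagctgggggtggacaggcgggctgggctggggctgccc

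Of 40 subunits of oxidative phosphorylation, 9 rose and 1 fell (median 0.18, with 12 higher and 2 lower without T16 replicate 1 and 2 higher and 1 lower without T16 replicate 2), and the share that rose, 22.5%, was close to that of all genes. Sdhb of complex II had 144 and 231 CPM at T16, against 84.7, 78.2 and 83.3 CPM at T6 (log2 fold change 1.19 ± 0.15 SE, edgeR adjusted p = 1.96e-06). Ndufs7 rose (0.86 ± 0.32, not called at 0.42 without T16 replicate 2, 0.72 without T6 replicate 1 and 0.71 without T6 replicate 3) and Uqcrfs1 fell (-0.94 ± 0.20). Ndufs1 (-0.18 ± 0.13) and Cox5a (0.23 ± 0.41) were not called. The median was 0.46 without T16 replicate 1, -0.11 without T16 replicate 2 and -0.26 in the KO libraries. In glycolysis, 6 of 24 tested rose and 6 fell (median -0.041, with 8 higher and 4 lower with library totals, median 0.31). These shares, 25% each way, were close to those of all genes (22.7% higher and 19.5% lower). Slc2a1, the main glucose transporter of activated macrophages, had 97.1 and 104 CPM at T16, against 330.0, 307 and 244 CPM at T6 (log2 fold change -1.55 ± 0.23 SE, edgeR adjusted p = 1.58e-05), Pfkp fell (-2.37 ± 0.16) and Pfkfb3, the activator of phosphofructokinase, fell (-1.63 ± 0.26). Pfkfb4 (1.49 ± 0.19), Pkm (1.02 ± 0.20) and Gpi1 (0.99 ± 0.19) rose. Bnip3, a mitophagy receptor, fell (-1.66 ± 0.44), and Ldha was not called (-0.18 ± 0.17). Hif1a, the hypoxia factor, had 234 and 56.1 CPM at T16, against 151, 71.1 and 151 CPM at T6, with the T16 libraries far apart and no call (0.22 ± 0.45).

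Cholesterol synthesis genes were lower in 13 of 23 cases and higher in 3 (median -1.02, with 6 higher and 11 lower with library totals, median -0.64 and 1 higher and 11 lower without T16 replicate 2). Cyp51, a middle enzyme of the route, fell (-2.48 ± 0.36), and so did Idi1 (-4.39 ± 0.75, and -7.99 without T16 replicate 1 and -3.62 without T16 replicate 2). Idi1 was near the floor, with 0.0817 and 0 CPM at T16, against 1.60, 0.825 and 0.664 CPM at T6, so the size of its fall is uncertain. Sc5d, a late enzyme, had 11.5 and 10.7 CPM at T16, against 65.7, 52.0 and 34.4 CPM at T6 (-2.19 ± 0.20). Its T16 and T6 libraries did not overlap, and its T0 mean was 17.01 ± 1.84 CPM. Sqle fell (-1.01 ± 0.35, not called at -0.81 without T16 replicate 2 and -0.44 without T6 replicate 1). Dhcr7, the last enzyme of the route, rose, with 11.4 and 13.4 CPM at T16, against 4.84, 3.43 and 3.63 CPM at T6 (log2 fold change 1.63 ± 0.20 SE, edgeR adjusted p = 1.64e-06). The sterol element ATCAC N CCAC was in none of the 19 windows of this list and in 0.192% of all windows, which says only that these letters are not there.

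On the side of sterol export, 2 of 17 genes rose and 3 fell (median 0.048, with 5 higher and 1 lower with library totals, median 0.41 and 4 higher and 2 lower without T16 replicate 2). Nr1h3, which encodes the sterol sensor LXR alpha, had 209 and 341 CPM at T16, against 93.7, 178 and 82.2 CPM at T6 (log2 fold change 1.22 ± 0.27 SE, edgeR adjusted p = 0.001), and Scd2 rose (1.90 ± 0.28), whereas Scd1 fell (-1.30 ± 0.40, not called at -1.12 without T16 replicate 2). Abcg1 (-0.45 ± 0.23) was not called. Of the sterol export genes, 11.8% rose and 17.6% fell, below the shares of all genes (22.7% and 19.5%). Ch25h, which makes the antiviral oxysterol 25-hydroxycholesterol, had 2.04 and 5.70 CPM at T16, against 78.5, 87.1 and 72.0 CPM at T6 (log2 fold change -4.37 ± 0.52 SE, edgeR adjusted p = 1.14e-06, and -5.27 without T16 replicate 2). The exporter Abca1 depended on the library: it had 567 and 102 CPM at T16, against 223, 168 and 291 CPM at T6 and was not called with both (0.56 ± 0.46, but called at -1.15 without T16 replicate 1 and 1.32 without T16 replicate 2). Of 38 lysosome genes, 5 rose and 6 fell (median -0.18, with 12 higher and 2 lower with library totals, median 0.19, 2 higher and 3 lower without T16 replicate 2 and 3 higher and 10 lower without T6 replicate 2). Sgsh, a lysosomal sulfatase, had 38.1 and 33.0 CPM at T16, against 8.40, 6.47 and 8.84 CPM at T6 (log2 fold change 2.16 ± 0.18 SE, edgeR adjusted p = 1.50e-08). Tfeb, the regulator of lysosome genes, rose (0.93 ± 0.19, not called at 0.50 without T16 replicate 2). Atp6v0d2, a subunit of the proton pump, fell (-1.76 ± 0.44, not called at -1.43 without T16 replicate 2). Lamp1 (-0.28 ± 0.15) and Ctsd (-0.058 ± 0.19) were not called. Of the lysosome genes, 13.2% rose and 15.8% fell, again below the shares of all genes.

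Antigen presentation changed in parts. Of 20 class I genes, 7 fell and 1 rose (median -0.24, with 2 higher and 5 lower with library totals, median 0.16 and 0 higher and 9 lower without T16 replicate 2). By share, 35% of the class I genes fell and 5% rose, against 19.5% and 22.7% of all genes. Among the falls, the peptide transporter gene Tap1 had 589 and 986 CPM at T16, against 1845, 2002 and 1437 CPM at T6 (log2 fold change -1.16 ± 0.21 SE, edgeR adjusted p = 1.32e-04). Nlrc5, the activator of class I genes, had 264 and 199.97 CPM at T16, against 911, 901 and 886 CPM at T6 (log2 fold change -1.95 ± 0.19 SE, edgeR adjusted p = 7.59e-08). H2-K1 and B2m, the chains of the class I molecule itself, had 3939.6 and 6024 CPM and 5847 and 7036 CPM at T16, against 4622, 5961 and 4239 CPM and 7629, 3519 and 6672 CPM at T6, with overlap and no call (0.012 ± 0.22 and 0.12 ± 0.30); class I genes have close copies. Tap2, the partner of Tap1, fell too (-1.47 ± 0.24). Of 15 class II genes, 3 fell and 1 rose (median -0.30, with 2 higher and 3 lower with library totals, median 0.036, 2 higher and 3 lower without T16 replicate 1 and 2 higher and 3 lower without T6 replicate 1). Ciita, the activator of class II genes, fell (-2.00 ± 0.51, not called at -1.51 without T16 replicate 2, and -2.83 without T16 replicate 1), and so did Cd80 (-1.55 ± 0.18), while H2-Aa (-0.55 ± 0.30) and Cd74 (-0.30 ± 0.33) were not called. Cd86, a co-stimulatory ligand, had 29.6 and 69.9 CPM at T16, against 254, 146 and 169 CPM at T6 (log2 fold change -1.93 ± 0.36 SE, edgeR adjusted p = 2.30e-04, and -2.68 without T16 replicate 2). Of the class II genes, 20% fell and 6.67% rose, near or below the shares of all genes (19.5% and 22.7%). In the endoplasmic reticulum, Hspa5 (BiP) fell (823 and 812 CPM at T16, against 1721, 1063 and 1576 CPM at T6, -0.83 ± 0.21), a call lost with library totals (-0.46), while Calr (1.13 ± 0.33, not called at 0.87 without T16 replicate 2), Sdf2l1 (1.37 ± 0.39, not called at 1.12 without T16 replicate 2) and Eif2ak3 (1.10 ± 0.26, not called at 0.48 without T16 replicate 1) rose. They are among 7 of 24 folding and unfolded protein response genes that rose, with 4 lower (median 0.13, with 12 higher and 0 lower with library totals, median 0.49 and 4 higher and 4 lower without T16 replicate 2). Ddit3 (CHOP) rose with overlapping values (0.97 ± 0.32, not called at 0.41 without T16 replicate 2, 0.79 without T6 replicate 1 and 0.92 without T6 replicate 3). Xbp1 (0.13 ± 0.16) was not called. Of the 24 genes, 29.2% rose and 16.7% fell, against 22.7% and 19.5% of all genes. Most of the rises did not hold in both fits that leave out a T16 library. The median was 0.25 without T16 replicate 1 and 0.0042 without T16 replicate 2.

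Markers of other cell types moved in places. Of 15 neutrophil and granulocyte precursor genes, 7 fell and none rose (median -0.82, with 1 higher and 3 lower with library totals, median -0.49, 1 higher and 1 lower without T16 replicate 1, 1 higher and 3 lower without T6 replicate 1 and 0 higher and 4 lower without T6 replicate 2). The share that fell was 46.7%, against 19.5% of all genes. The summed level of these neutrophil genes was 533 and 1316 CPM at T16, against 638 to 1138 CPM at T6, and of this Lcn2, which macrophages also make, supplied 378 and 972 CPM at T16. Ngp had 32.3 and 68.9 CPM at T16, against 147, 101 and 93.3 CPM at T6 (-1.17 ± 0.32, not called at -0.73 without T16 replicate 1, and -1.82 without T16 replicate 2) and S100a8 24.5 and 58.7 CPM at T16, against 93.3, 95.8 and 49.3 CPM at T6 (-0.94 ± 0.32, not called at -0.44 without T16 replicate 1, -0.81 without T6 replicate 1 and -0.78 without T6 replicate 2, and -1.69 without T16 replicate 2), while Ctsg (-1.85 ± 0.40), Camp (-1.65 ± 0.44, not called at -1.06 without T16 replicate 1, and -2.61 without T16 replicate 2) and Fcnb (-1.22 ± 0.43, not called at -0.64 without T16 replicate 1 and -1.06 without T6 replicate 1, and -2.08 without T16 replicate 2) also fell. The T, B and NK markers summed to 15.2 and 20.2 CPM at T16 and 14.7 to 22.5 CPM at T6, and Cd3e, Cd3d and Cd3g were below the count filter; Cd79b rose (1.46 ± 0.39, not called at 0.79 without T16 replicate 2). Erythroid markers summed to 50.8 and 22.4 CPM at T16 and 101 to 107 CPM at T6, nearly all of it Tfrc, the transferrin receptor of many cell types, which fell, with 50.1 and 21.2 CPM at T16, against 106, 103 and 100.1 CPM at T6 (-1.53 ± 0.33, and -2.28 without T16 replicate 1). Stromal markers summed to 468 and 480 CPM at T16, against 98.3 to 311 CPM at T6, with 1 of 12 higher (Pecam1, 2.01 ± 0.39) and 1 lower (Kdr, -1.99 ± 0.41). Their median was 0.52, with 3 higher and 1 lower with library totals, median 0.89. Of 11 dendritic cell genes, 5 fell and none rose (median -1.11), while their summed level was 1154 and 2712 CPM at T16, against 1244, 2017 and 851 CPM at T6, so that the sums overlapped. Bst2, an interferon-stimulated gene that macrophages also express, supplied most of it and was not called (1138 and 2695 CPM at T16, against 1190.2, 1956 and 779 CPM at T6, log2 fold change 0.55 ± 0.39 SE, edgeR adjusted p = 0.274). The falls included Ccl22, which is in the cytokine list too, Clec9a (-2.20 ± 0.38) and Dpp4 (-1.66 ± 0.49, not called at -1.55 without T16 replicate 1). The mast cell markers summed to 1.55 and 0.863 CPM at T16 and 1.87 to 3.74 CPM at T6, with Kit lower (-1.64 ± 0.48, not called at -1.10 without T16 replicate 2, and -2.67 without T16 replicate 1). Their part in the results above was not tested.

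STK40, a pseudokinase that partners the COP1 ubiquitin ligase, is the product of the gene that is labelled knocked out in the KO cells. Stk40 RNA in WT cells had 96.0 and 143 CPM at T16, against 322, 335 and 281 CPM at T6 (log2 fold change -1.39 ± 0.18 SE, edgeR adjusted p = 2.83e-06), with 48.1 ± 7.29 CPM in untreated cells. In libraries labelled KO it averaged 161 ± 5.87 CPM at T16 and 376 ± 18.4 CPM at T6 (SD, n = 3 each), so gene-level counts do not show the deletion and the genotype rests on the labels. Of 14 genes of the ligase, the Tribbles adaptors and known substrates, 4 fell and 2 rose (median 0.23, with 6 higher and 2 lower with library totals, median 0.59, 1 higher and 3 lower without T16 replicate 1, 1 higher and 4 lower without T16 replicate 2, 1 higher and 4 lower without T6 replicate 1 and 2 higher and 2 lower without T6 replicate 2). By share, 28.6% of these genes fell and 14.3% rose, against 19.5% and 22.7% of all genes. Cebpd, a substrate family member of the acute response, had 22.5 and 41.2 CPM at T16, against 186, 310.4 and 113 CPM at T6 (log2 fold change -2.67 ± 0.46 SE, edgeR adjusted p = 9.49e-05). Etv5, an ETS factor, had 18.4 and 20.9 CPM at T16, against 8.57, 6.35 and 6.08 CPM at T6 (1.48 ± 0.26). Cop1 itself fell (-0.60 ± 0.18, not called at -0.41 without T16 replicate 1 and -0.44 without T6 replicate 2).

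The step was also measured in the 6 KO-labelled libraries, which share no library with the WT comparison. There 7269 genes (46.1%) were called between T16 and T6, 3821 higher and 3448 lower. Of the WT calls, 2891 of 3587 higher genes (80.6%) were also called higher in KO, which is 75.7% of the KO list, and 2526 of 3080 lower genes (82.0%, and 73.3% of the KO list) were also called lower. Only 5 genes were called in opposite directions. All 23 libraries were fitted together, so the spread is shared between the comparisons. None of the 6 KO libraries held Y-linked RNA (at most 0.0711 CPM), and their Xist was at 408 to 586 CPM. In WT, T16 replicate 2 and T6 replicate 1 held Y-linked RNA (45.9 and 116 CPM), so the mix of sexes differed along with genotype. The test of the difference itself, WT step minus KO step, called 7 genes (0.0444%), with 1213 at an unadjusted p under 0.05, and DESeq2 called 78. It called 756 without WT T16 replicate 1 and 0 without WT T16 replicate 2.

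Tspan13, a tetraspanin, had the lowest p. It had 6.45 and 6.83 CPM at T16, against 31.8, 41.6 and 30.4 CPM at T6 in WT, and averaged 40.1 ± 4.19 CPM at T16 and 52.8 ± 11.9 CPM at T6 in KO (SD, n = 3 each). The step was -2.38 in WT and -0.39 in KO, a difference of -1.99 ± 0.27 (SE, edgeR adjusted p = 0.00726). Snx24, a sorting nexin, rose in both, with 42.6 and 43.2 CPM at T16, against 3.80, 4.38 and 3.68 CPM at T6 in WT (3.44) and 44.9 ± 1.92 CPM against 1.99 ± 0.126 CPM in KO (4.49). Tns1 (tensin 1), Kcnk13 (a potassium channel) and Cnst (consortin) rose less in WT than in KO, by differences of -1.32, -1.10 and -1.52, and the step in Cnst was not called in WT (0.39). Wdr18 rose more in WT (1.21) than in KO (0.31).

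**Figure D5:**
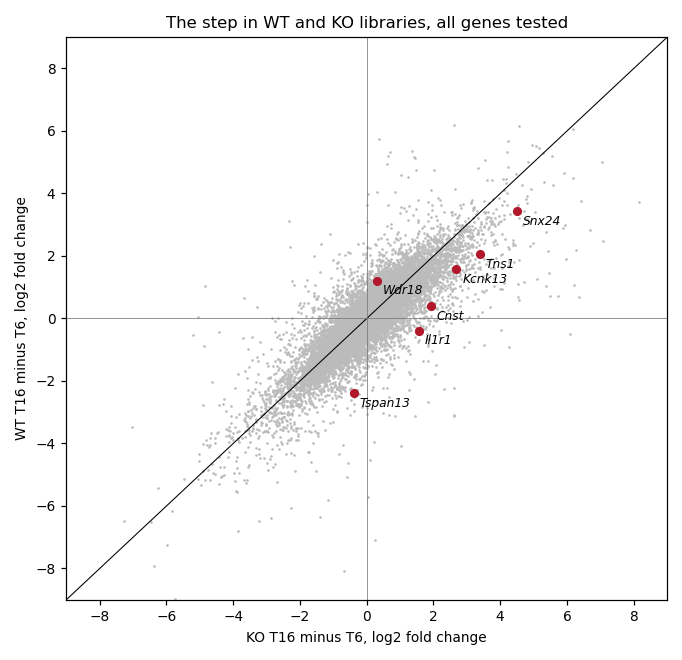
Log2 fold change of T16 over T6 in WT libraries (vertical axis) against that in KO-labelled libraries (horizontal axis) for all 15782 genes tested. The black line marks equal steps. Red points are the 7 genes whose step differs between genotypes in the fit, from Tspan13 (-2.38 in WT, -0.39 in KO) to Snx24 (3.44 in WT, 4.49 in KO).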

How the data were processed

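RNA of 23 libraries was sequenced with a kit that does not mark strand. Reads were aligned with GSNAP to GRCm38, per the submitters' processing notes, and the authors deposited counts of uniquely aligned reads per gene, per the file headers, so genes with near-identical copies are uncertain; no source used here gives the tool versions or annotation release. The authors also deposited size-factor-adjusted RPKM (nRPKM), used here only to rank genes by level. Counts of all 23 libraries in 8 groups were filtered (edgeR 4.0.16, filterByExpr), scaled by TMM and fitted with robust quasi-likelihood models in R 4.3.3 (limma 3.58.1), giving 15782 tested genes. Calls have a Benjamini-Hochberg adjusted p under 0.05, and SE is the log2 fold change divided by the square root of F. DESeq2 1.42.0, other scalings, filters, sample sets and leaving out libraries were the alternatives. The steps were tested on simulated data for the WT comparison. They recovered 34 of 100 changes of 2-fold and 67 of 100 of 4-fold, with 2 false calls among 15404 unchanged genes. A gene that was not called may therefore still differ. The simulation changed only 100 genes per fold, where 6667 were called in the data. Its noise was drawn separately for each library and held no length trend. Its rates of recovery and of false calls may therefore not carry over to the data. Coordinates are GENCODE M21 and promoters RefSeq GRCm38.p6.

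The gene lists and members were chosen with earlier results of these data known. Genes named are the 12 largest changes in each direction that held without either T16 library, the index genes of each list, up to 3 called members per list, the 6 lowest p-values of the genotype difference and the 6 largest ratios each way between the T16 libraries; other list members were picked after their values were seen. Some genes that these rules name are not reported here. Values after a fold change give the fits without 1 library where the call changed or the fold moved over 1.5 times.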

Additional observations from a re-analysis of the deposited data

Results flagged for a closer look

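These 7 genes are set apart because the step from T6 to T16 differed between WT and KO-labelled libraries in edgeR's quasi-likelihood test of the difference itself, WT step minus KO step. Tspan13 (a tetraspanin) had 6.45 and 6.83 CPM at T16, against 31.8, 41.6 and 30.4 CPM at T6 in WT, and averaged 40.1 CPM at T16 and 52.8 CPM at T6 in KO. The steps were -2.38 in WT and -0.39 in KO, and their difference was -1.99 ± 0.27 (SE, edgeR adjusted p = 0.00726). Cnst (consortin) had 21.3 and 12.7 CPM at T16, against 14.2, 12.9 and 11.8 CPM at T6 in WT, and averaged 26.3 CPM at T16 and 6.96 CPM at T6 in KO. Its difference of steps, 0.39 in WT and 1.91 in KO, was -1.52 ± 0.23 (SE, edgeR adjusted p = 0.0151). Tns1 (tensin 1) had 24.1 and 27.2 CPM at T16, against 6.67, 6.16 and 5.52 CPM at T6 in WT, and averaged 67.9 CPM at T16 and 6.50 CPM at T6 in KO. The steps were 2.07 in WT and 3.38 in KO, and their difference was -1.32 ± 0.21 (SE, edgeR adjusted p = 0.0252). Kcnk13 (a potassium channel) had 48.6 and 44.3 CPM at T16, against 15.7, 15.7 and 15.3 CPM at T6 in WT, and averaged 42.9 CPM at T16 and 6.69 CPM at T6 in KO. Its difference of steps, 1.58 in WT and 2.68 in KO, was -1.10 ± 0.18 (SE, edgeR adjusted p = 0.0252). Snx24 (a sorting nexin) had 42.6 and 43.2 CPM at T16, against 3.80, 4.38 and 3.68 CPM at T6 in WT, and averaged 44.9 CPM at T16 and 1.99 CPM at T6 in KO. The steps were 3.44 in WT and 4.49 in KO, and their difference was -1.05 ± 0.18 (SE, edgeR adjusted p = 0.0316). Wdr18 (a ribosome biogenesis factor) had 41.1 and 45.6 CPM at T16, against 19.0, 16.6 and 20.6 CPM at T6 in WT, and averaged 19.8 CPM at T16 and 15.9 CPM at T6 in KO. Its difference of steps, 1.21 in WT and 0.31 in KO, was 0.90 ± 0.16 (SE, edgeR adjusted p = 0.0497). Il1r1 (the interleukin 1 receptor) had 3.13 and 2.70 CPM at T16, against 3.74, 3.43 and 4.29 CPM at T6 in WT, and averaged 13.5 CPM at T16 and 4.55 CPM at T6 in KO. The steps were -0.39 in WT and 1.56 in KO, and their difference was -1.95 ± 0.35 (SE, edgeR adjusted p = 0.0497). Il1r1 lies below the level set for named genes and was picked after its values were seen. WT T16 replicate 2 and WT T6 replicate 1 held Y-linked RNA and no KO library did, so the mix of sexes differed along with genotype. With Y-linked RNA as a covariate, the genotype difference called 5 genes. None of the 7 was called without WT T16 replicate 2, without that library and WT T6 replicate 2, or with the T6 and T16 libraries alone.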

How the results depend on the processing

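The WT step called 6896 genes in DESeq2 (3344 higher and 3552 lower), against 6667. With the length trend removed, 3322 genes were higher and 3586 lower. With library totals, 5516 genes were higher and 1824 lower in WT, 5954 and 1935 in KO, and the genotype difference had 2. The 5 WT libraries alone called 3324 genes, 1694 higher and 1630 lower, and the T6 and T16 libraries of both genotypes called 0 for the genotype difference. DESeq2 called 78 genes for the genotype difference. Leaving out 1 library at a time gave 5411 to 6419 genes called in WT (3011 to 3488 higher, 2400 to 3225 lower), 6228 to 6944 in KO and 0 to 756 for the genotype difference. Without WT T16 replicate 2 and WT T6 replicate 2 together, a choice made after seeing the data like the length and block fits, the counts were 5229 in WT and 0 for the genotype difference. Of the 6667 calls, 4817 were also made in the same direction without WT T16 replicate 2, 5217 without WT T16 replicate 1 and 3313 with the 5 WT libraries alone, and none was called in the other direction in these fits. Whether replicate numbers pair the samples is not stated. The correlations of same-numbered deviations were -0.010 and 0.327 in WT and 0.022, -0.130 and -0.054 in KO. Deviations of the 2 WT T16 libraries mirror each other, so the WT values are not independent and cannot exclude pairing. With the number as a block, 6822 genes were called in WT, 7500 in KO and 4 for the genotype difference. Every gene named for its change of sign was not called with all libraries, and the log2 fold changes that changed sign follow. With library totals they were Atf4 0.19, Cd68 0.28, Cd74 0.036, Ctsd 0.28, Egr1 0.087, Lamp1 0.077, Ldha 0.18, Ncl 0.28, Ndufs1 0.21, Nr4a1 0.11, Tlr4 0.038. With the length trend removed they were B2m -0.038, H2-K1 -0.20, Ncl 0.090, Rps3 -0.22, Xbp1 -0.049. With the replicate block they were Cd68 0.10, Rps3 -0.035. In DESeq2 they were H2-K1 -0.057, Rps3 -0.060. With relative log expression scaling they were H2-K1 -0.057, Rps3 -0.060. With Y-linked RNA as a covariate they were H2-K1 -0.014, Rps3 -0.020. With WT libraries only they were H2-K1 -0.027, Rps3 -0.031. Over the fits that leave out libraries, the ranges of genes that changed sign were Abca1 -1.15 to 1.32, Atf4 -0.45 to 0.27, B2m -0.30 to 0.34, C3 -1.07 to 0.057, Ccl5 -0.16 to 1.36, Cd68 -0.73 to 0.22, Cd74 -0.87 to 0.091, Cox5a -0.30 to 0.72, Csf1r -0.036 to 0.27, Ctsd -0.49 to 0.19, Egr1 -0.84 to 0.20, H2-K1 -0.32 to 0.29, Hif1a -1.15 to 0.92, Irf7 -0.19 to 0.85, Lcn2 -0.23 to 1.27, Ldha -0.31 to 0.0070, Ncl -0.19 to 0.0033, Ndufs1 -0.39 to 0.013, Rpl3 -0.046 to 0.66, Rps3 -0.34 to 0.30, Tlr4 -0.91 to 0.035, Xbp1 -0.11 to 0.24. With the 5 WT libraries alone, the list counts were 5 higher and 1 lower for ribosome biogenesis, 1 higher and 1 lower for oxidative phosphorylation, 1 higher and 0 lower for the unfolded protein response, 6 higher and 1 lower for NRF2 genes and 0 higher and 1 lower for neutrophil markers, with smaller counts in most other lists. With the length trend removed they were 1 higher and 7 lower for class II presentation, 1 higher and 13 lower for cholesterol synthesis, 4 higher and 11 lower for lysosome genes and 0 higher and 12 lower for ribosomal proteins. Ribosomal proteins had 0 higher and 10 lower with the replicate block and 0 higher and 6 lower in DESeq2, where lysosome genes had 4 higher and 12 lower and clock genes 5 higher and 5 lower. The cause of these shifts was not tested. With 2 libraries at T16, small differences and genes of a few CPM are the least certain.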
